A study of Rattus norvegicus with 241 samples.

Results

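A set of 10 genes that cut the extracellular matrix or restrain its cutting were followed through every bulk and single-cell table of the rat mammary gland: the matrix metalloproteinases MMP2, MMP3, MMP9, MMP10 and MMP14, the tissue inhibitors of metalloproteinases TIMP1, TIMP2 and TIMP3, the urokinase plasminogen activator PLAU and the plasminogen activator inhibitor SERPINB2. They were chosen by symbol, ignoring case, and all 10 members were found among the 16820 genes of the bulk tables. MMP9 and SERPINB2 were not analysed in the sorted ACI single cells. The series held 241 samples, of which 202 were bulk RNA-seq of sorted cell fractions and 39 were single-cell libraries, from female ACI and SD (Sprague Dawley) rats given vehicle or TGFBRi (LY2157299, an oral inhibitor of the TGFβ receptor 1 kinase). The dose was 75 mg/kg given 2 times a day for 10 days, or for 21 days in the estradiol experiment.

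Young ACI rats started dosing at 35 days of age and their basal, luminal and CD45 cells were taken 0, 7 and 14 days after the last dose, with 3 rats of each treatment at each time. Young SD rats started at 24 days of age and were taken at day 0, with 4 rats of each treatment. Virgin and parous adult ACI rats of 18 to 24 weeks were taken at day 0, with 4 rats of each treatment except for 2 vehicle parous and 3 TGFBRi virgin CD45 samples. SD rats dosed from 21 days of age then received NMU (N-nitroso-N-methylurea, a carcinogen) at 50 mg/kg and were taken at day 87. These were 3 tumor-bearing vehicle rats, 3 tumor-bearing TGFBRi rats and 3 tumor-free TGFBRi rats, and EPCAM and CD45 cells were sorted from the tumors of the tumor-bearing rats. ACI rats of the estradiol (E2) experiment were dosed from 38 days of age, some with a pellet of 37 mg E2. Their luminal and CD45 cells came from 4 vehicle and 3 TGFBRi rats without E2, and, with E2, from 4 vehicle rats with tumors and from TGFBRi rats of which 4 were free of tumors and 2 bore them. Every sequenced vehicle rat given NMU or E2 bore a tumor, so treatment and tumor status cannot be told apart in the comparisons with tumor-free TGFBRi rats. The paper reports no mammary tumors in rats with empty pellets, so E2 and tumor status cannot be told apart among vehicle rats. Single cells were taken at day 0 from young rats: sorted basal and luminal cells of 3 vehicle and 3 TGFBRi ACI rats and of 3 vehicle and 6 TGFBRi SD rats, and whole glands of 3 vehicle and 6 TGFBRi SD rats.

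Matrix metalloproteinases are zinc enzymes that are made as inactive precursors and cut collagens, laminins and other matrix proteins. MMP2 and MMP9 are gelatinases, MMP3 and MMP10 are stromelysins, and MMP14 is anchored in the cell membrane, where it activates the MMP2 precursor together with TIMP2. PLAU converts plasminogen to plasmin, which in turn activates several of the precursors. TIMP1, TIMP2 and TIMP3 block the enzymes directly, TIMP3 while bound to the matrix, and SERPINB2 blocks PLAU. In the mammary gland these genes take part in duct growth and in the remodelling of the gland around pregnancy, and both stromelysins and TIMP1 are textbook targets of the AP-1 transcription factors.

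Promoters were looked at because MMP3, MMP10 and TIMP1 were among the members that differed most between cell types and treatments below. RefSeq promoter sequences of build GRCr8, from 250 bases before to 50 bases after the start of transcription, were at hand for 7 of the 10 members. The build differs from that of the count tables and is used here for sequence only. In the 3 promoters below, 5′ to 3′ along the gene's own strand, capitals mark the AP-1 sequence TGAGTCA and its variant TGAGTAA. Of the 7, these 3 are the ones that held either sequence. PLAU also differed widely below, but its promoter is not printed. The MMP3 promoter lies at chr8:12925031-12925330 on the plus strand, that of MMP10 at chr8:12974457-12974756 on the plus strand and that of TIMP1 at chrX:3771073-3771372 on the minus strand.
MMP3: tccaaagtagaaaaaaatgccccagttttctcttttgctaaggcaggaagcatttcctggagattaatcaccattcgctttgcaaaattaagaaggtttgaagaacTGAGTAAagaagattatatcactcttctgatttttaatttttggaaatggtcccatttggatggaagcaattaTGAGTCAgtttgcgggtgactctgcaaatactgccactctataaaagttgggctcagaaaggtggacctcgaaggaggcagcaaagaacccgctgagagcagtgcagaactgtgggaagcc
MMP10: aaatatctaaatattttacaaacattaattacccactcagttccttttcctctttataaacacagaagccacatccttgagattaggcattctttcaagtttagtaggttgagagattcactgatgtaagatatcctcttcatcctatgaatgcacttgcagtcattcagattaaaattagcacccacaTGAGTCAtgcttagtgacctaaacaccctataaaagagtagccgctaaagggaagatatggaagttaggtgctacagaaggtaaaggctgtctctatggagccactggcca
TIMP1: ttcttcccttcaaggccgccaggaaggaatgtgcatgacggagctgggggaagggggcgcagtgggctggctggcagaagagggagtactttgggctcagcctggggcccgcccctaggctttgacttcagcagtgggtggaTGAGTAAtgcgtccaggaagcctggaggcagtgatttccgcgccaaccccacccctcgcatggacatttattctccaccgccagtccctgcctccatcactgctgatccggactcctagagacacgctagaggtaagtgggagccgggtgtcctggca
TGAGTCA began 71 bases before the start in MMP3 and 61 bases before it in MMP10. TGAGTAA began 144 bases before the start in MMP3 and was also in the TIMP1 window. Searched on both strands, TGAGTCA was present in 4.63% and TGAGTAA in 2.90% of 33469 promoters of this length. The TATA sequence TATAAA, present in 14.2% of promoters, began 32 bases before the start in MMP3 and 33 bases before it in MMP10, and it was not in the TIMP1 window. Neither AP-1 sequence was in the windows of TIMP2, TIMP3, PLAU or SERPINB2. These matches describe letters and not binding.

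The bulk libraries held 4194912 to 52314784 reads on genes, and the single-cell libraries 563 to 16424 cells with 4517218 to 92699378 UMIs. The labelled fractions were checked against marker lists summed in CPM (reads scaled to 1e+06 reads on genes). In vehicle ACI rats at day 0 the basal list summed to between 14011 and 16335 in basal cells and to between 70.2 and 145 in luminal cells, and the luminal keratins to between 14389 and 16794 in luminal cells and to between 2026 and 2567 in basal cells. Fibroblast markers were present in the CD45 fraction, at 12675 to 32347 CPM in the same rats, and in basal cells at 3470 to 8919 CPM. In the NMU tumors the EPCAM fraction held the fibroblast list at 9758 to 78491 CPM and luminal keratins at only 1571 to 8662 CPM, and is therefore called by its gate. In bulk samples, fewer cells of a type and less RNA per cell cannot be told apart. CD45 cells were scaled apart from epithelial cells by the authors, so levels are set side by side only within a fraction or between basal and luminal cells. Levels of different genes are not compared, since gene lengths were not used.

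The whole-gland single cells showed where each member was transcribed. Cells were clustered without the members, and clusters were called X-like from markers. Clusters that the markers did not place in 1 class stayed unnamed and are left out of the classes. Whole-gland clusters 16 and 18, with 2223 and 1711 cells and LYZ2 among their top genes, were among these, beside 2343 macrophage-like cells. Over all 9 rats, fibroblast-like cells carried the highest pooled level among the 14 classes of MMP2, at 1280 CPM (UMIs scaled to 1e+06 UMIs of the class), of MMP14, at 866 CPM, and of TIMP2, at 1491 CPM. Basal-like cells had MMP2 at 100.9 CPM, MMP14 at 128 CPM and TIMP2 at 167 CPM. PLAU was highest in mature luminal-like cells at 2522 CPM, followed by luminal-like cells at 1174 CPM, against 77.9 CPM in basal-like and 198 CPM in fibroblast-like cells. MMP3 and MMP10 were also highest in mature luminal-like cells, at 157 and 87.8 CPM. TIMP1 was present in all stromal and epithelial classes, with 2796 CPM in Schwann-like, 2712 CPM in mural-like, 2149 CPM in fibroblast-like and 1420 CPM in luminal progenitor-like cells. TIMP3 was at 678 CPM in Schwann-like and 606 CPM in mural-like cells; its mean over vehicle rats was higher in Schwann-like cells (679 against 438 CPM) and over TGFBRi rats in mural-like cells (777 against 679.5 CPM). Among the named classes MMP9 was highest in B-like cells at 63.6 CPM, with 15.4 CPM in macrophage-like cells, and SERPINB2 did not exceed 5.61 CPM in any. These pooled levels are descriptions, since free RNA in the droplets adds a few UMIs of abundant genes to every class.

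**Figure D1:**
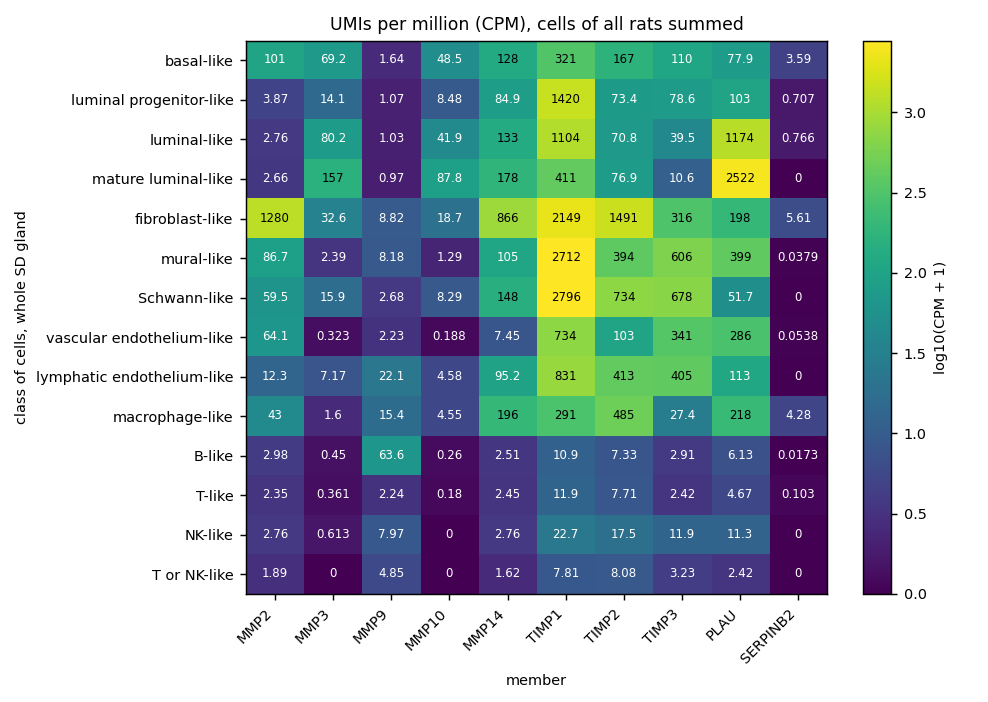
Pooled level of each member (columns) in each class of whole-gland SD cells (rows), printed as CPM over the cells of all 9 rats and colored by log10(CPM + 1). MMP2, MMP14 and TIMP2 are highest in fibroblast-like cells, PLAU, MMP3 and MMP10 in mature luminal-like cells and MMP9 in B-like cells.

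Basal and luminal cells of the same vehicle rats were compared first. In vehicle ACI rats, averaged over the 3 times, MMP2, TIMP2 and TIMP3 were higher in basal cells and MMP3, MMP10, PLAU and TIMP1 were higher in luminal cells, so that 7 of the 10 members were called at an adjusted p of at most 0.05 (limma, Benjamini-Hochberg over all genes), against 34.1% of all genes tested. At day 0 the normalized read counts of MMP2 were 10524, 11950 and 12061 in the basal cells and 452, 587 and 846 in the luminal cells of the 3 vehicle rats. Its log2 difference over the 3 times was 3.41 (SE 0.37, adjusted p = 8.2e-09 by limma), or 10.6-fold on the log2(value + 1) scale. The stromelysin MMP3 stood the other way, at 201, 229 and 469 in basal cells, against 3670, 4334 and 4563 in luminal cells. Its basal level was 11.7-fold lower (log2 difference −3.55, SE 0.27, adjusted p = 9.7e-12 by limma).

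MMP10 followed MMP3, at 34.7, 39.9 and 99.4 in basal cells against 685, 807 and 819 in luminal cells, a level 11.4-fold lower in basal cells (log2 −3.52, SE 0.28). No basal sample reached the luminal range for either stromelysin at day 0. PLAU counts were 1267, 1366 and 1691 in basal cells, against 4519, 6110 and 9899 in luminal cells, and over the 3 times PLAU was 8.82-fold lower in basal cells (log2 −3.14, SE 0.34). TIMP1 counts were 1710, 1759 and 1818 in basal cells, against 7629, 8014 and 8270 in luminal cells, and the basal level was 5.47-fold lower (log2 −2.45, SE 0.49). The other inhibitors were basal: TIMP2 read 8566, 9597 and 11553 in basal cells, against 2025, 2160 and 2475 in luminal cells (3.93-fold higher, log2 1.97, SE 0.27). TIMP3 read 9026, 9540 and 11378 in basal cells, against 2459, 2541 and 3088 in luminal cells (1.87-fold higher, log2 0.90, SE 0.26). MMP14 did not pass the test, at a log2 difference of −0.13 (SE 0.24, adjusted p = 0.77 by limma). In these rats at day 0 the fibroblast list was at 3470 to 8919 CPM in basal and 696 to 1442 CPM in luminal cells, and its part was not tested.

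**Figure D2:**
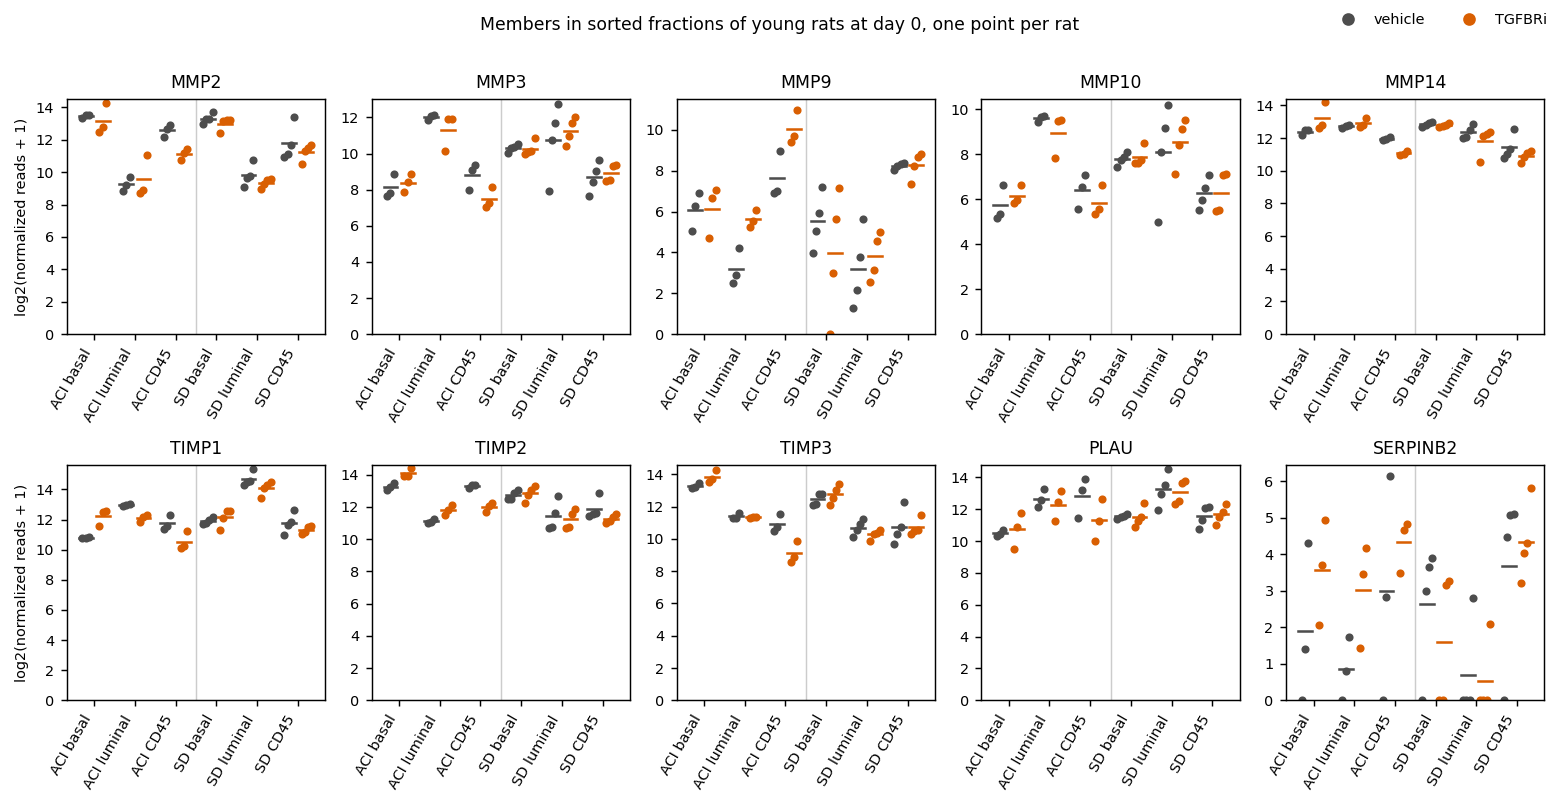
Each member as log2(normalized reads + 1) in basal, luminal and CD45 cells of young ACI and SD rats at day 0, 1 point per rat, vehicle in grey and TGFBRi in orange, with a line at the mean of the log values. MMP2 lies higher in basal than in luminal cells and TIMP1 higher in luminal than in basal cells of the vehicle rats of both strains; CD45 cells were scaled apart.

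In the bulk data of SD and NMU rats fewer members were called, at shares not far from those of all genes, so these counts are no result about the members. In SD vehicle rats 5 members were called, against 50.1% of all genes: MMP2 was 11.3-fold higher in basal cells (log2 3.499, SE 0.30), TIMP2 was 2.42-fold and TIMP3 3.36-fold higher, while TIMP1 was 6.74-fold and PLAU 3.23-fold lower. The fibroblast list summed to between 34449 and 53480 CPM in these basal cells and to between 252 and 1457 CPM in the luminal cells, beside 10696 to 13430 CPM for the basal list in the basal cells, and its part in the differences was not tested. The call of TIMP2 was lost without rat C6R (log2 1.10) or C7R (log2 0.94). MMP3 was not called in SD rats, where the basal values ran from 1042 to 1465 and the luminal values from 242 to 6913 (log2 −0.47, SE 0.66, adjusted p = 0.57 by limma). In glands of vehicle NMU rats 3 members were called, against 21.9% of all genes: MMP2 was 10.9-fold higher in basal cells and MMP14 2.48-fold higher, and TIMP1 was 14.2-fold lower. Luminal TIMP1 counts in these rats were 111785, 135208 and 246883, against 9929, 11302 and 11701 in basal cells. Without rat C2R the call of MMP14 was lost (log2 1.05). The fibroblast list stood there at 1653 to 9686 CPM in basal and 278 to 492 CPM in luminal cells, and its part was not tested.

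Single cells from the same gates were compared as libraries. In the ACI sorts 7 of the 8 members in the table were called, against 69.2% of all genes (edgeR's quasi-likelihood test on UMIs summed per library), and in both strains the values are given as a description since most genes were called. MMP2 was 38.3-fold, TIMP2 4.27-fold and TIMP3 4.35-fold higher in the basal sort, and MMP3 was 19.7-fold, MMP10 10.6-fold, PLAU 8.85-fold and TIMP1 5.05-fold lower. In the SD sorts 5 members were called, against 58.5% of all genes: MMP2 was 80.02-fold, TIMP2 2.41-fold and TIMP3 2.64-fold higher, and PLAU was 7.09-fold and TIMP1 4.58-fold lower in the basal sort. With the rat as a block MMP3 (log2 −1.76) and MMP10 (log2 −1.24) were called lower in the SD basal sort as well. Within the luminal cells, pooled TIMP1 in the ACI sort was 942 CPM in luminal progenitor-like and 143 CPM in mature luminal-like cells, whereas MMP3 was 7.201 and 112 CPM and PLAU 9.76 and 52.1 CPM in the same classes.

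Treatment with TGFBRi was next compared in the bulk fractions at the end of dosing. In young ACI rats at day 0 limma called no member in basal, luminal or CD45 cells, where 3.34%, 1.01% and 2.85% of all genes were called. At an unadjusted p under 0.05, 45 of the 349 tests of members over 35 bulk comparisons (3 of them between tumor-free and tumor-bearing TGFBRi rats) passed, beside 141 to 4023 genes per comparison, and 2 were called after adjustment (the adult basal cells below). DESeq2 called 4 member values at day 0, MMP9, TIMP2 and TIMP3 in CD45 and MMP9 in luminal cells, where it called 7.06% and 3.75% of all genes. A fit of only the compared groups called 5, TIMP1 and TIMP2 in basal and TIMP1, TIMP2 and MMP9 in luminal cells, where it called 10.7% and 11.6% of all genes. In basal cells TIMP1 read 3041, 5660 and 6076 in TGFBRi rats and 1710, 1759 and 1818 in vehicle rats, without overlap (log2 1.42, SE 0.65, adjusted p = 0.19 by limma). In luminal cells the order of TIMP1 was the opposite, 3575, 4498 and 5126 in TGFBRi rats against 7629, 8014 and 8270 in vehicle rats (log2 −0.87, SE 0.93, adjusted p = 0.68 by limma). TIMP2 read 15830.3, 15838 and 21981 in basal cells of TGFBRi rats against 8566, 9597 and 11553 in vehicle rats (log2 0.85, SE 0.34, adjusted p = 0.14 by limma), with no overlap. The median log2 difference of all genes was 0.30 in these basal cells.

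In CD45 cells at day 0, TIMP1, TIMP2, TIMP3, MMP2 and MMP14 read lower in all 3 TGFBRi rats than in any vehicle rat. MMP9 read higher in all 3 TGFBRi rats than in any vehicle rat. The share of all genes without overlap is not given, so this order is a description. No member was called by limma, although 7 members and 2642 of 14761 genes had an unadjusted p under 0.05. TIMP3 ran from 382 to 940 in TGFBRi rats and from 1460 to 3036 in vehicle rats (log2 −1.81, SE 0.48, adjusted p = 0.052 by limma), and TIMP2 from 3277 to 4923 against 9310 to 10726 (log2 −1.30, SE 0.36, adjusted p = 0.064 by limma). MMP2 read 1701, 2343 and 2793 against 4614, 6427 and 7652 (log2 −1.45, SE 0.64), and MMP14 2034 to 2368 against 3720 to 4217 (log2 −0.88, SE 0.45). MMP9 stood higher, at 682, 840 and 2019 in TGFBRi rats and 119, 126 and 501 in vehicle rats (log2 2.42, SE 0.70, adjusted p = 0.075 by limma). Markers of other cells moved with these values: the fibroblast list summed to between 991 and 7303 CPM in CD45 cells of TGFBRi rats and to between 12675 and 32347 CPM in vehicle rats, and the neutrophil list to between 465 and 1822 CPM against 28.7 to 91.2 CPM. Their part in the differences of the members was not tested.

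After the end of dosing limma called no member at day 7 or day 14 in any fraction, where it called 0 to 0.00639% of all genes. DESeq2 called 3 members over both days. Its share of all genes is not given here, so this count is no result about the members. At day 14 MMP3 in luminal cells read 12096, 16125 and 25026 in TGFBRi rats and 3797, 4350 and 7177 in vehicle rats (log2 1.79, adjusted p = 0.24 by limma), and MMP10 read 2176, 3166 and 4822 against 720, 814 and 1355 (log2 1.79, adjusted p = 0.23 by limma). Both stromelysins were thus higher in all 3 TGFBRi rats without passing the test, and DESeq2 called both. In young SD rats at day 0 limma called no gene in any fraction, edgeR and DESeq2 called no member, and the 2 groups overlapped for every member and fraction compared. At an unadjusted p under 0.05, 244 to 501 genes and 0 members passed by limma. TIMP1 in luminal cells ran from 10775 to 22650 in TGFBRi rats and from 19693 to 42073 in vehicle rats (log2 −0.59, SE 0.38), and MMP2 in basal cells from 5515 to 9428 against 8144 to 13466 (log2 −0.32, SE 0.21).

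In adult virgin ACI rats limma called 2 members in basal cells, and it called none in the other bulk comparisons of treatment. In basal cells MMP14, the membrane-bound activator, read 6555, 6776, 8652 and 11346 in TGFBRi rats and 14998, 15490.2, 18425 and 19397 in vehicle rats. The groups did not overlap, and MMP14 fell by 1.06 on the log2 scale (SE 0.20, adjusted p = 0.0053 by limma), a level 2.09-fold lower. MMP2 read 4362, 4557, 4596 and 10691 in TGFBRi rats and 9065, 9600, 9765 and 10715 in vehicle rats, so that 1 treated rat lay among the controls, and it fell by 0.81 (SE 0.24, adjusted p = 0.044 by limma). The 2 members called compare with 8.73% of all genes, and the median log2 difference of all genes was −0.25. Beside them, the fibroblast list ran from 434 to 5468 CPM in TGFBRi rats and from 1208 to 2979 CPM in vehicle rats, with 8 of its 9 genes lower, and its part in the result was not tested. The call of MMP2 was lost under DESeq2, edgeR, a fit of the compared groups only and a block for the shared rat code, and without 7 of the 8 rats in turn (log2 −0.84 to −0.69, all but D_N1R), and that of MMP14 in the fit of the compared groups only, at the same log2 difference. In CD45 cells of virgin rats 0.0220% of all genes and in luminal cells 0% were called, and no member. In parous rats limma called no member either, against 0.00744% of all genes in basal, 0.0281% in luminal and 0% in CD45 cells, and basal MMP2 read between 7125 and 8069 in TGFBRi rats and between 8096 and 11129 in vehicle rats. DESeq2 called 4 member values in adult rats: MMP14, MMP9 and TIMP1 (log2 −1.80) lower in virgin basal cells, against 12.6% of all genes, and MMP14 (log2 0.65) higher in parous luminal cells, against 1.49%. Vehicle rat C_N1N stood far above the other vehicle rats in basal MMP9 (273.7 against 0 to 30.0) and TIMP1 (16609 against 2303 to 3592). Between parous and virgin vehicle rats limma, edgeR and DESeq2 called no member in any fraction.

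Glands of NMU rats, taken long after dosing, gave no member called by limma in any of 9 comparisons. DESeq2 called 4 members, and its share of all genes is not given here, so this count is no result about the members. Between tumor-free TGFBRi and vehicle rats limma called 0% of all genes in basal, 0.948% in luminal and 0% in CD45 cells, between tumor-bearing TGFBRi and vehicle rats 1.31%, 0.212% and 0.0150%, and between tumor-free and tumor-bearing TGFBRi rats 5.58%, 0% and 0%. MMP2 in luminal cells read 3262, 3361 and 4180 in tumor-free TGFBRi rats and 780, 1141 and 1210 in vehicle rats, without overlap (log2 1.80, SE 0.51, adjusted p = 0.086 by limma). TIMP1 in luminal cells read 12248, 32211 and 87397 in tumor-bearing TGFBRi rats against 111785, 135208 and 246883 in vehicle rats (log2 −2.25, SE 0.60, adjusted p = 0.085 by limma). The fibroblast list in the luminal cells summed to between 442 and 2562 CPM in tumor-free TGFBRi rats and to between 278 and 492 CPM in vehicle rats, and its part was not tested. In the tumors themselves limma called no gene between treatments in EPCAM or in CD45 cells, and edgeR and DESeq2 called no member. At an unadjusted p under 0.05, 278 and 841 genes passed by limma, among them 1 member in CD45 cells.

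Tumors were compared with glands of the same rats, and over 4 comparisons 20 member values were called. Recovered reads of both tables were put on a common scale for this comparison (TMM, which sets most genes level between samples), and folds and log2 values are on that scale, whereas the CPM beside them are shares of each library's reads on genes. The ratio of EPCAM tumor to luminal gland cells is larger in CPM than on the common scale, by 2.07-fold in vehicle and 1.43-fold in TGFBRi rats, and that of CD45 cells by 1.01-fold and 1.04-fold. In vehicle rats MMP2 stood at 812, 6506 and 6614 CPM in EPCAM tumor cells and at 37.9, 40.995 and 42.1 CPM in luminal gland cells, 39.2-fold higher (log2 5.29, SE 0.80, adjusted p = 5.7e-04 by limma). MMP14 was at 1241, 2797 and 3547 CPM against 82.995, 84.3 and 278 CPM (8.94-fold higher). MMP3 was at 460, 881 and 2059 CPM against 36.2, 46.8 and 148 CPM (7.203-fold higher), and MMP10 at 83.7, 155 and 355 CPM against 3.60, 6.96 and 23.8 CPM (9.52-fold higher). TIMP1 was the exception, at 585, 609 and 1028 CPM in tumor cells and 4859, 6031 and 7728 CPM in luminal gland cells, a level 17.6-fold lower (log2 −4.14, SE 0.68, adjusted p = 7.8e-04 by limma). None of these 5 members overlapped between tumor and gland, and 22.3% of all genes were called. Without rat C2R the calls of MMP3 (log2 2.17) and MMP14 (log2 2.83) were lost, as was that of MMP14 without C2N (log2 2.48).

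In TGFBRi rats MMP2, MMP3 and MMP10 were again higher in the tumors, against 15.1% of all genes called: MMP2 stood at 2064, 2100.3 and 2959 CPM in tumor cells and 43.8, 168 and 291 CPM in gland cells (12.7-fold), MMP3 was 6.04-fold and MMP10 5.47-fold higher. MMP14 was at 818, 2324 and 3687 CPM in tumors against 265, 348 and 479 CPM in glands and was not called (log2 1.92, SE 0.64, adjusted p = 0.053 by limma). TIMP1 in these tumors was at 670, 972 and 1829 CPM, and in the glands at 708, 2180 and 4774 CPM. The gates differed between tissues (EPCAM for tumors, CD24 and CD29 for glands), and the fibroblast list summed to between 9758 and 78491 CPM in EPCAM tumor cells against 278 to 4683 CPM in luminal gland cells. The part of the gate and of these markers was not tested. Without rat D3R none of the 3 calls remained (log2 2.83 for MMP2, 2.25 for MMP3 and 1.99 for MMP10).

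**Figure D3:**
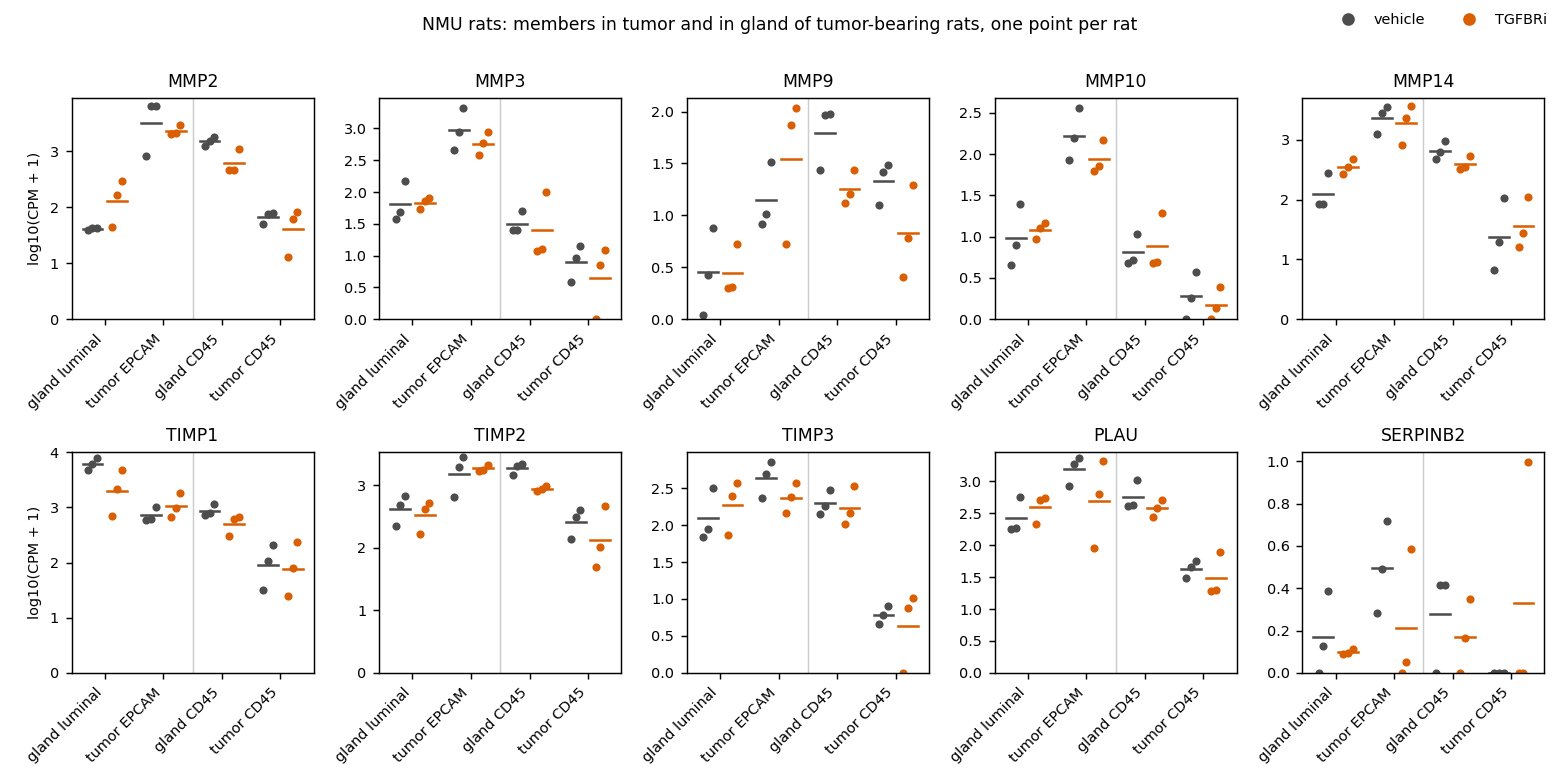
Each member as log10(CPM + 1) in luminal and CD45 gland cells and EPCAM and CD45 tumor cells of the tumor-bearing NMU rats, 1 point per rat, vehicle in grey and TGFBRi in orange, with a line at the mean of the log values. CPM are not on the common scale of the fitted folds. MMP2, MMP3 and MMP10 are higher in EPCAM tumor cells than in luminal gland cells in both treatments, and MMP2, MMP14, PLAU, TIMP1, TIMP2 and TIMP3 are lower in CD45 tumor cells than in CD45 gland cells.

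CD45 cells of tumors had less of most members than CD45 cells of glands. MMP2, MMP14, PLAU, TIMP1, TIMP2 and TIMP3 were lower in tumors in both treatments, against 8.55% of all genes in vehicle and 22.1% in TGFBRi rats. In vehicle rats MMP2 was at 49.5, 74.9 and 78.5 CPM in tumors and at 1237, 1549 and 1795 CPM in glands (log2 −4.52, SE 0.58), and TIMP3 at 3.62, 5.02 and 7.00 CPM against 142, 183 and 298 CPM (log2 −5.29, SE 1.29). PLAU was at 29.6, 45.4 and 54.8 CPM in tumors and 405, 421 and 1050.1 CPM in glands, 13.6-fold lower. The fibroblast list was at 428 to 2513 CPM in tumor CD45 cells and at 7468 to 28956 CPM in gland CD45 cells, and PTPRC, which encodes CD45, at 166 to 1225 CPM against 48.3 to 255 CPM. In vehicle rats the call of MMP14 was lost without rat C2R (log2 −3.71), those of TIMP1 and TIMP2 without C2R or C5R, and that of TIMP3 without any of the 3 rats (log2 −5.95 to −4.73). In TGFBRi rats those of MMP14, TIMP1 and TIMP2 were lost without D3R or D4R, and with the rat as a block MMP3 (log2 −3.79) and MMP10 (log2 −4.17) were called lower too.

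Between rats with and without E2, limma called 3 member values in luminal cells and none in CD45 cells. In CD45 cells it called 0.282% of all genes among vehicle and 5.58% among TGFBRi rats. At an unadjusted p under 0.05, 5 members among vehicle and 1 among TGFBRi rats passed there by limma. The number of all genes at that unadjusted p is not given, so the shares called are no background for it. Among vehicle rats MMP3 read 477, 520, 548 and 2723 with E2 and 4191, 6303, 7814 and 19105 without it, and it was 10.1-fold lower with E2 (log2 −3.34, SE 0.72, adjusted p = 0.023 by limma), against 1.48% of all genes called. MMP10 differed in the same direction without passing (log2 −2.79, SE 0.75, adjusted p = 0.072 by limma). All 4 vehicle rats with E2 bore tumors, so in these vehicle comparisons E2 and tumor status cannot be told apart. Among TGFBRi rats TIMP2 read 2398, 3334, 4519.8 and 5489 in tumor-free rats with E2 and 12017, 12119 and 14241 without E2, 3.40-fold lower and without overlap (log2 −1.76, SE 0.35, adjusted p = 0.0087 by limma), against 4.58% of all genes. SERPINB2 was called in the same comparison, with 55.7, 105.9, 243 and 632 normalized counts in rats with E2 and 0 in all 3 rats without it. Yet SERPINB2 was at 0 in all 4 vehicle rats with E2 and at 0, 0, 18.4 and 756 in vehicle rats without E2. edgeR called 1 member value over these comparisons, DESeq2 called 7, and limma called 9 with the A4-15 samples kept separate. The shares of all genes in these 3 fits are not given here, so the counts are no result about the members. The call of MMP3 was lost without any of 6 of the rats (log2 −3.45 to −2.92) and under edgeR (log2 −3.19), and that of SERPINB2 without either of 2 rats and under edgeR. The fibroblast list in luminal cells summed to between 41.6 and 421 CPM in tumor-free TGFBRi rats with E2 and to between 342 and 1229 CPM without E2, and its part was not tested. No member was called between TGFBRi and vehicle rats within E2 or without it by limma or edgeR. DESeq2 called 2, and its share of all genes is not given here, so this count is no result about the members. In luminal cells limma called 0.0147% of all genes where no E2 was given, and with it 0.0147% for rats free of tumors and 0.00736% for those bearing them. In CD45 cells the shares were 0%, 0% and 0.0223%.

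Sorted single cells were summed per rat and class. Folds and log2 values of single cells are on the TMM scale of the fit, whereas CPM are shares of the UMIs of each sum. On the fitted scale the log2 difference between TGFBRi and vehicle rats is higher than in CPM by 0.21 to 0.35 in the ACI and 0.31 to 0.41 in the SD sorted classes, and it is shifted by between −0.23 and 0.01 in the whole-gland classes described further on. Mean CPM gave the other direction for 0 of the 10, 5 and 45 member values called in these 3 data sets. TIMP1 was higher after TGFBRi in all 7 classes of both strains and called in 5, and TIMP3 was lower in all 7 and called in 3. Bulk cells at day 0, where limma called no member, went partly the other way. Normalized counts of luminal TIMP1 were lower, at 3575 to 5126 against 7629 to 8270 in ACI rats and at means of 17819 against 27105 in SD rats. Basal TIMP3 was higher, at 11626 to 20099 against 9026 to 11378 and at means of 7372 against 5714. Basal TIMP1 was higher in both strains and SD luminal TIMP3 was lower, as in the single cells. In ACI luminal progenitor-like cells TIMP1 stood at 347, 353 and 374 CPM in vehicle rats and 1540.2, 1557 and 1732 CPM in TGFBRi rats, 5.76-fold higher on the fitted scale (log2 2.53, adjusted p = 2.9e-08 by edgeR). In these cells MMP3 was at 0.985, 4.35 and 6.54 CPM against 6.92, 10.7 and 13.5 CPM (2.80-fold higher), TIMP2 was 1.62-fold and PLAU 2.65-fold higher, and 20.5% of all genes were called. TIMP1 rose also in luminal-like cells, 3.78-fold with 15.2% of all genes called and beside TIMP2 (1.34-fold higher, adjusted p = 0.029 by edgeR), and in mature luminal-like cells, 1.85-fold with 14.2% called. The call of MMP3 was lost without ACI7, ACI12 or ACI16 (log2 1.296 to 1.46), that of PLAU without 4 of the 6 rats and that of TIMP2 in luminal-like cells without ACI7, ACI15 or ACI16 (log2 0.31 to 0.44).

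In ACI basal-like cells TIMP1 was at 38.9, 48.4 and 68.6 CPM in vehicle rats and 92.5, 94.2 and 162 CPM in TGFBRi rats (2.65-fold higher, adjusted p = 0.040 by edgeR), against 25.9% of all genes called. This call was lost without ACI7, ACI8 or ACI9 (log2 1.25 to 1.64), and that of PLAU, below, without 5 of the 6 rats. TIMP3 fell there, from between 300.2 and 348 CPM to between 170 and 205 CPM (1.42-fold lower on the fitted scale), and PLAU from between 2.86 and 5.65 CPM to between 1.87 and 2.596 CPM. In SD basal-like cells, with 17.6% of all genes called, TIMP1 was at 61.04, 65.4 and 118 CPM in vehicle rats and ran from 70.4 over a median of 148 to 406 CPM in the 6 TGFBRi rats, with overlap (3.09-fold higher, adjusted p = 0.038 by edgeR). TIMP3 there was at 92.7, 156 and 216 CPM against 43.5 to 85.2 CPM (median 63.8), 1.82-fold lower and without overlap. In SD basal-like cells the calls of TIMP1 and TIMP3 were each lost without 5 of the 9 rats (log2 1.46 to 1.99 and −0.86 to −0.54). SD mature luminal-like cells, with 25.4% of all genes called, had TIMP3 at 11.96, 16.8 and 17.4 CPM in vehicle rats and 1.55 to 5.70 CPM (median 3.80) in TGFBRi rats, 3.33-fold lower, and MMP10 with 8, 14 and 36 UMIs against 2 to 8 UMIs. In SD luminal progenitor-like cells, where 11.9% of all genes were called, TIMP1 was at 602, 1033 and 1076 CPM against 862 to 2653 CPM and was not called (log2 1.13, adjusted p = 0.081 by edgeR). The call of SERPINB2 in these cells rested on 0 UMIs in all 3 vehicle rats and 0 to 17 UMIs in TGFBRi rats, and it was lost without any of 6 rats. Without rat SD1 the calls of TIMP3 (log2 −1.65) and MMP10 (log2 −2.54) in mature luminal-like cells were lost. The largest cluster of vehicle cells was not that of TGFBRi cells in 6 of the 7 classes compared, while the ACI luminal-like class was a single cluster. For example, 48.1% of the ACI basal-like cells of vehicle rats were in one cluster and 38.2% of those of TGFBRi rats in another, and in ACI luminal progenitor-like cells the shares were 86.5% and 94.2%. In the SD sort, clusters also followed single rats, and the paper reports clustering by animal in this strain. Cluster 4, the largest of TGFBRi basal-like cells, held 29.5% of them. Of its 3453 cells, 3393 came from rat SD14. Other clusters drew on sets of TGFBRi rats. Of the 3473 cells of cluster 2, 1598 came from SD9 and 1568 from SD10. Cluster 3, with 3461 cells, held 762 from SD11, 900 from SD12, 924 from SD13 and 680 from SD14.

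**Figure D4:**
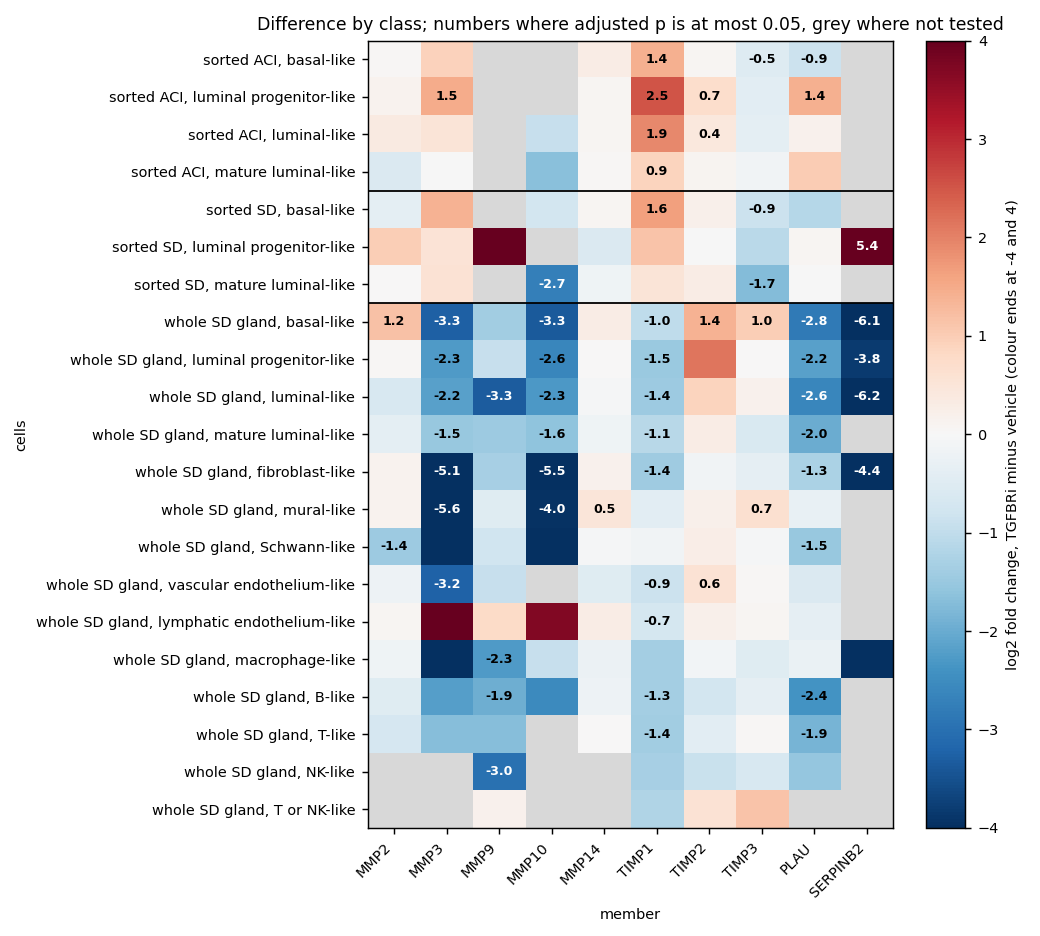
Log2 difference, TGFBRi minus vehicle, of each member (columns) in each class (rows) of sorted ACI, sorted SD and whole-gland SD single cells, with red for higher and blue for lower, grey where not tested, and the value printed where the adjusted p by edgeR was at most 0.05. TIMP1 is higher after TGFBRi in all 7 sorted classes and lower in all 14 whole-gland classes.

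In whole glands of young SD rats TIMP1, PLAU and both stromelysins fell after TGFBRi in most classes. Bulk basal cells of young SD rats at day 0 did not show such a fall. Mean normalized counts there were 1274.6 after TGFBRi against 1274.8 in vehicle for MMP3 and 240 against 221 for MMP10. PLAU stood there at 3132 against 3008 and TIMP1 at 4782 against 3871. In bulk luminal cells the means were lower, at 2694 against 3038, 439 against 512, 9531 against 11858 and 17819 against 27105, with overlap. Among whole-gland classes TIMP1 was lower after TGFBRi in 14 of 14 (called in 9) and PLAU in 13 of 13 tested (called in 8). MMP3 was lower in 11 of 12 (called in 7) and MMP10 in 9 of 10 (called in 6). All 4 called values of MMP9 and all 4 of SERPINB2 were lower too. The SERPINB2 call in luminal-like cells was lost without any of 7 of the 9 rats, and that in luminal progenitor-like cells without vehicle rat 2 (log2 −3.06). TIMP2 and TIMP3 were each called higher in 2 classes and MMP14 in 1, and MMP2 was called higher in 1 class and lower in 1. Of 120 tests 45 were called, in 13 of 14 classes, and the share of all genes called ran from 0.760% in T or NK-like cells, where no member was called, to 36.4% in basal-like cells.

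Basal-like cells showed both directions. MMP2 was at 45.99, 58.2 and 90.7 CPM in vehicle rats and from 88.6 to 203 CPM (median 139) in TGFBRi rats, 2.25-fold higher (adjusted p = 0.016 by edgeR). TIMP2 was at 82.8, 93.96 and 99.6 CPM against 187 to 291 CPM (median 247), 2.62-fold higher (adjusted p = 1.7e-04 by edgeR), and TIMP3 at 68.3, 71.9 and 90.1 CPM against 92.9 to 181 CPM (median 154), 1.963-fold higher. The secreted stromelysins and PLAU fell in the same cells. MMP3 was at 90.8, 114 and 182 CPM in vehicle rats and 2.56 to 25.6 CPM (median 10.8) in TGFBRi rats, 9.58-fold lower. MMP10 was 10.2-fold lower, PLAU 7.08-fold lower, from 91.4, 109 and 201 CPM to between 10.7 and 38.8 CPM, and TIMP1 2.02-fold lower, from 354, 401 and 521 CPM to between 138 and 251 CPM. SERPINB2 had from 29 to 128 UMIs in vehicle rats, 0 in 5 TGFBRi rats and 4 in the other. The call of MMP2 was lost without either of 2 vehicle rats (log2 0.97 to 1.13). For TIMP2, TIMP3, MMP3, MMP10, PLAU and TIMP1 no treated rat overlapped the vehicle rats. Cluster 13 held 76.1% of the basal-like cells of vehicle rats and cluster 6 held 88.1% of those of TGFBRi rats. In sorted SD basal-like cells MMP2 was not called, and its mean was lower after TGFBRi, at 66.6 against 116.9 CPM, with overlap. In bulk basal cells of young SD rats its mean was lower too, at 8339.5 against 10318.5 normalized counts, with overlap.

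Both stromelysins fell in fibroblast-like cells, against 21.8% of all genes called. MMP3 was at 11.3, 83.4 and 175 CPM in vehicle rats and 0.415 to 5.53 CPM (median 1.95) in TGFBRi rats, 35.5-fold lower (adjusted p = 0.0033 by edgeR), and MMP10 at 5.39, 51.6 and 101.4 CPM against 0.160 to 3.19 CPM (median 0.841), 44.4-fold lower. The vehicle rats spread over more than a factor of 10 for both. TIMP1 was at 2643, 3252 and 3701 CPM against 936 to 1999 CPM (median 1279), 2.68-fold lower, and PLAU at 181, 368 and 386 CPM against 83.8 to 177 CPM (median 150), 2.42-fold lower. MMP2, MMP14 and TIMP2, which these cells carried at the highest levels, were not called in them.

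Luminal classes shared the fall of PLAU. In mature luminal-like cells, with 18.6% of all genes called, PLAU was at 3813, 4396 and 5506 CPM in vehicle rats and 904 to 1750.5 CPM (median 1087) in TGFBRi rats, 3.95-fold lower (adjusted p = 2.2e-04 by edgeR). In luminal-like cells, with 18.9% called, it was at 1814, 2408 and 2922 CPM against 255 to 614 CPM (median 404), 6.13-fold lower (adjusted p = 3.4e-05 by edgeR). In luminal progenitor-like cells, with 18.7% called, it was at 127, 188 and 323 CPM against 16.7 to 86.5 CPM (median 45.9), 4.52-fold lower. No treated rat overlapped the vehicle rats in any of the 3 classes. TIMP1 fell 2.81-fold in luminal progenitor-like cells, from 1910, 2490 and 2626 CPM to between 488 and 1333 CPM, and it was 2.73-fold lower in luminal-like and 2.15-fold lower in mature luminal-like cells. MMP3 was 4.83-fold, 4.50-fold and 2.86-fold lower in luminal progenitor-like, luminal-like and mature luminal-like cells, and MMP10 6.04-fold, 4.90-fold and 3.06-fold lower. In mature luminal-like cells the call of MMP3 was lost without 7 of the 9 rats (log2 −1.67 to −1.33) and that of MMP10 without 5 (log2 −1.81 to −1.46).

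**Figure D5:**
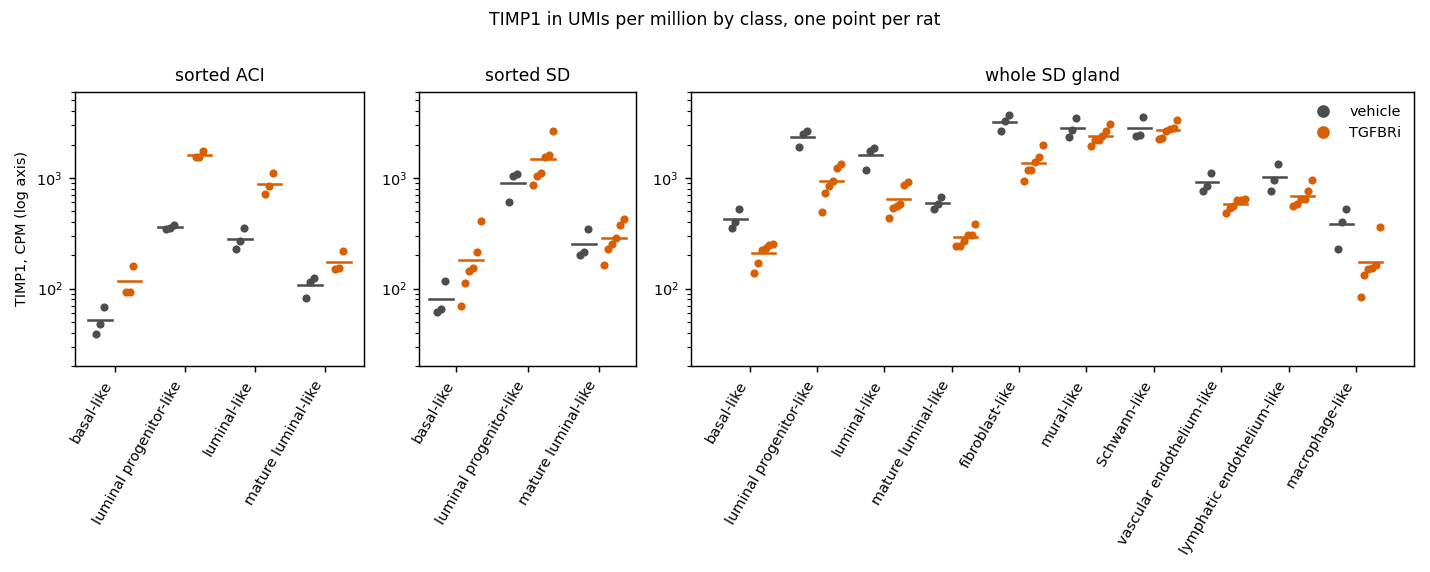
TIMP1 in CPM (log axis) by class in sorted ACI, sorted SD and whole-gland SD cells, 1 point per rat, vehicle in grey and TGFBRi in orange, with a line at the mean; the 4 lymphoid classes of the whole gland are left out and CPM are not on the fitted scale. In fibroblast-like cells the 3 vehicle rats lie between 2643 and 3701 CPM and the 6 TGFBRi rats between 936 and 1999 CPM.

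Vessel and mural cells had members called in both directions. In mural-like cells TIMP3 was at 377, 426 and 512 CPM in vehicle rats and 658 to 944 CPM (median 768) in TGFBRi rats, 1.57-fold higher (adjusted p = 0.0053 by edgeR), and MMP14 was 1.39-fold higher, with 20.3% of all genes called. In vascular endothelium-like cells, with 24.0% of all genes called, TIMP2 was at 67.8, 71.1 and 84.8 CPM against 103.8 to 168 CPM (median 129), 1.505-fold higher, and TIMP1 at 766, 845 and 1116 CPM against 483 to 645 CPM (median 592), 1.81-fold lower. TIMP1 was 1.63-fold lower in lymphatic endothelium-like cells, where 10.2% of all genes were called, a call lost without vehicle rat 4 (log2 −0.39). MMP3 was called in mural-like cells on 9, 25 and 28 UMIs against 0 to 1, and in vascular endothelium-like cells on 2, 4 and 5 UMIs against 0 to 1, and MMP10 in mural-like cells on 1, 13 and 18 UMIs against 0 to 2 (log2 −3.95, adjusted p = 0.019 by edgeR). The part of free RNA in these calls was not tested. The call of MMP3 in vascular endothelium-like cells was lost without any of 3 TGFBRi rats (log2 −3.01 to −2.90), and that of MMP10 in mural-like cells without vehicle rat 1, vehicle rat 2 or TGFBRi rat 11 (log2 −6.13 to −3.43). In Schwann-like cells, with 6.95% of all genes called, MMP2 fell 2.72-fold, from 42.01, 86.6 and 112 CPM to between 12.6 and 51.1 CPM, and PLAU 2.89-fold. The call of MMP14 in mural-like cells was lost without any of 7 of the 9 rats (log2 0.39 to 0.49), that of TIMP2 in vascular endothelium-like cells without vehicle rat 2 (log2 0.51) and that of MMP2 in Schwann-like cells without the 6% of cells with the most UMIs (log2 −0.92).

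MMP9 was called lower in 3 immune classes and in luminal-like cells, there at a log2 of −3.34 that was not called without vehicle rat 1 or vehicle rat 2. In B-like cells MMP9 was at 114, 124 and 150 CPM in vehicle rats (194 to 1054 UMIs) and 26.02 to 47.8 CPM (median 35.05) in TGFBRi rats (154 to 337 UMIs), 3.86-fold lower and without overlap (adjusted p = 6.9e-05 by edgeR), against 11.4% of all genes called. In macrophage-like cells, with 1.95% called, MMP9 was at 12.5, 16.6 and 52.4 CPM against 4.23 to 8.83 CPM (median 5.82), 4.83-fold lower, from 22 to 83 UMIs in vehicle and 3 to 10 UMIs in TGFBRi rats. In NK-like cells, with 1.85% called, the counts were 0, 3 and 17 UMIs against 0 to 3, and the call was lost without any of 5 TGFBRi rats. That in macrophage-like cells was lost without the 6% of cells with the most UMIs (log2 −1.10). TIMP1 and PLAU were called lower in B-like and T-like cells (4.20% of all genes called in the latter), at 5.96 to 30.7 CPM for TIMP1 and 1.46 to 18.7 CPM for PLAU over both classes. TIMP1 in these classes lay below its level in every luminal, basal-like and fibroblast-like sum of the whole glands, and the part of free RNA was not tested. Without vehicle rat 2 the calls of TIMP1 in B-like cells (log2 −1.03) and of PLAU in T-like cells (log2 −1.55) were lost. The largest clusters of vehicle and TGFBRi B-like cells differed, with 62.4% of the former in cluster 0 and 40.1% of the latter in cluster 2. Among macrophage-like cells 65.9% of those of vehicle rats were in cluster 20 and 51.2% of those of TGFBRi rats in cluster 24, and among fibroblast-like cells 38.4% were in cluster 10 and 37.97% in cluster 11.

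Whole-gland and sorted cells of the 2 strains and protocols are set side by side without a test of the difference. In luminal progenitor-like cells of vehicle rats TIMP1 was at 1910 to 2626 CPM in whole SD glands, at 602 to 1076 CPM in sorted SD cells and at 347 to 374 CPM in sorted ACI cells. A list of 14 immediate-early and heat shock genes was added after the values of the members were seen, and 12 of them were tested in each class. FOSL1, a partner in AP-1, was lower in 14 of 14 whole-gland classes (called in 11, log2 −2.20 to −0.59) and called higher in 2 of 4 sorted ACI classes. FOS was called higher in 5 whole-gland classes and lower in 3 sorted ACI classes. Of the others, FOSB was called higher in 9 whole-gland classes, JUNB in 7, EGR1 in 5, NR4A1 in 4 and JUN in 2, and none of these 5 was called lower there. IER3 was called lower in 9 whole-gland classes and HSPH1 in 2, ATF3 was called higher in 2 and lower in 3, and DNAJB1 and HSPA1B were called in none. In the sorted ACI classes EGR1 was called lower in 3, FOSB in 2 and JUN, JUNB and NR4A1 in 1 each, and IER3 was called higher in 3. In the 3 sorted SD classes, of the strain of the whole glands, FOSL1 and IER3 were called in none, EGR1 was called lower in 2, FOS and FOSB lower in 1 each and DNAJB1 higher in 1. In whole-gland basal-like cells 6 of the 12 were called higher and 2 lower, against 36.4% of all genes called. These genes were chosen after their values were seen. The part of tissue handling in the differences of the members was not tested.

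Other genes of the pathway were counted by list. In whole-gland cells PLAUR, the receptor of PLAU, fell in 10 classes (log2 −2.75 to −0.61), as did the lysosomal protease CTSL (log2 −1.33 to −0.49), and the collagenase MMP13 fell in 7 classes (log2 −4.97 to −2.05). The membrane-anchored inhibitor RECK rose in 3 classes (log2 0.53 to 2.23), and the aggrecanase ADAMTS5 in 3 (log2 0.95 to 1.84). Of the same list as ADAMTS5, ADAM17 fell in 6 classes (log2 −1.12 to −0.43) and rose in 0. ADAMTS1 rose in 3 and fell in 3. In basal-like cells, where 36.4% of all genes were called, 9 of 16 ADAM and ADAMTS proteases rose and 1 fell, with a list median of 0.72. In luminal progenitor-like cells of the ACI sort, against 20.5% of all genes called, 3 of 5 cathepsins and 2 of 3 tested other inhibitors rose, among them TIMP4 (log2 1.12). In the basal against luminal comparison of ACI vehicle rats the protease inhibitor SERPINE2 (log2 6.97) was higher and MMP13 (log2 −4.35) and TIMP4 (log2 −3.58) were lower in basal cells. In EPCAM tumor cells of vehicle rats 8 of 13 other MMPs were higher than in luminal gland cells and none lower, against 22.3% of all genes called, led by MMP11 (log2 8.22), MMP19 (log2 5.45) and MMP16 (log2 5.08). In the basal cells of adult virgin rats, where MMP14 and MMP2 fell, none of 14 other MMPs was called, with a list median of −0.95, and the sheddase ADAM17 (log2 −1.34) and ADAMTS1 (log2 −1.31) fell.

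Over all 196 bulk rat and fraction pairs, the genes with the pattern most like each member were found by Pearson's r of log2(CPM + 1) among 10452 genes. Samples of one rat or data set share preparation, and fractions differ in depth, so r is a description. MMP2 was most like HTRA1 (r = 0.95), COL6A2 and C1R, and MMP14 most like MAGED1, PAM and PARVA (r = 0.90 to 0.89). MMP3 and MMP10 were most like each other (r = 0.98), and next like PRSS22 (r = 0.84 and 0.81). Both are neighbouring paralogs on chromosome 8, so reads of one may have been counted for the other. TIMP1 was most like TAX1BP3 and CXCL1 (r = 0.88 and 0.87), TIMP2 like NBL1 (r = 0.86), TIMP3 like APP and OSMR (r = 0.92 and 0.91), PLAU like PLIN2 and ST14 (r = 0.78) and MMP9 like CD40, PRKCB and IRF8 (r = 0.80 to 0.79). SERPINB2, at 0 in many samples, reached r = 0.41 with EREG.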

How the data were processed

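Sorted basal (CD24+CD29high), luminal (CD24+CD29low) and CD45 cells of digested glands, and EPCAM and CD45 tumor cells, were sequenced in bulk, and single cells by 10x. Per the paper's methods, the authors aligned bulk reads to rn6 with STAR 2.5.1b, and counted with HTSeq without strand. The labels name DESeq2 1.30.1, and the deposited signal had the form of counts divided by 1 factor per sample. Every one of the 2526805 values above 0 gave a whole read at a tolerance of 0.001. In 85 samples, 3 rows that name no gene held 23.1 to 42.5% of reads and were left out. Single-cell tables were UMI counts deposited by the authors (Cell Ranger 4.0.0 or 7.0.0, Seurat 4.0.0 or 4.1.1), and the sorted tables held only cells with no PTPRC and at least 2 keratin UMIs. In RefSeq, TIMP1 lies within the span of SYN1 and TIMP3 within that of SYN3, and counting without strand cannot tell reads of such pairs apart.

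Bulk values were tested as log2(value + 1) with limma 3.58.1 (trend, robust), over genes whose values summed to 10 or more, and each fraction of an experiment was fitted in 1 model. edgeR and DESeq2 on the recovered reads were alternatives. Single cells were clustered (leidenalg 0.10.2, resolution 0.8, 2000 variable genes, 30 components, members and pathway lists left out) and UMIs summed per rat and class with at least 10 cells were tested with edgeR 4.0.16 (quasi-likelihood, TMM). DESeq2 1.42.0 was an alternative. Calls are Benjamini-Hochberg adjusted p at most 0.05 over all genes of a comparison. Scripts were tested on simulated data. No doublet caller was run; an alternative left out the 6% of cells with the most UMIs. Libraries shared up to 2.51% of cell barcodes.

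The rule was to name the 10 members in every comparison, called or not, and other pathway genes only where called, at most 3 per list and comparison. All members were tested, but values are printed for most called members and for some uncalled ones, picked after their values were seen. The rest are given by name or by counts. Where members are said not to overlap between groups, the share of all genes without overlap is not given, so this describes their values only. The members and lists were chosen with earlier results of these data known, the rule that scores markers was set with the data in view, and the immediate-early list was added after values were seen. Groups came from the labels. Rat LD2LR, whose labels disagree, was taken as vehicle, LD9R as day 7, and the 4 samples coded A4-15 were averaged as 1 rat. The labels do not say whether litters or days were shared. The p-values measure the spread between these rats and take the rats as independent, which was not tested. Basal with luminal samples, and tumor with gland samples, come from the same rats. The main fits had no term for the rat, so their p-values do not use this pairing, and the rat as a block was an alternative. Deviations from the group means correlated over 0.1 in 14 of 18 ACI (up to r = 0.73), 3 of 8 SD and 5 of 9 NMU pairs. Between tumor and gland they did so in 0 of 6 epithelial and 0 of 6 CD45 pairs. The smallest library held 4194912 reads on genes. The value of 1 gene of the pathway lists is not reported here.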

Additional observations from a re-analysis of the deposited data

Results flagged for a closer look

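Of 197 sets of a member in a group of 4 to 10 rats, 29 had a rat that stood apart from the rest by Dixon's test at the 95% level. Chance gives this in about 1 in 20 sets of independent, normally distributed values. These counts were not logged and the sets share rats, so the 29 cannot be set against that rate. The vehicle virgin ACI rat C_N1N stood highest in 10 of them, in normalized counts: in CD45 cells MMP2 was 6446 (others 1214 to 1669), TIMP1 16870 (others 1817 to 2664) and TIMP3 10202 (others 958 to 1921). In its basal cells MMP3 was 853.1 (others 49.2 to 157), MMP9 273.7 (others 0 to 30.0), MMP10 104.6 (others 8.34 to 24.6), PLAU 11676 (others 2055 to 3635) and TIMP1 16609 (others 2303 to 3592). In its luminal cells MMP2 was 3045 (others 301 to 480) and TIMP3 14435 (others 5377 to 5590). The macrophage list summed to 978 CPM in the basal sample of this rat against a group median of 10.1 CPM, and its part was not tested.

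Among treated adult rats, D_N2N had basal MMP3 at 634.1 (others 58.7 to 119) and MMP10 at 73.67 (others 6.29 to 17.3), D_N1R had basal MMP2 at 10691 (others 4362 to 4596), D_P2R had no MMP3 in CD45 cells, a count of 0 (others 507 to 578), and luminal MMP2 at 194.9 (others 461 to 487), and D_P1R had CD45 TIMP3 at 2544 (others 1421 to 1477). Vehicle rat C_P1R had luminal MMP14 at 8574 (others 6326 to 6646). In young SD rats, D7R had basal MMP3 at 1881 (others 1006 to 1110) and MMP10 at 363 (others 193 to 210), D7N had basal MMP2 at 5515 (others 8989 to 9428), D8R had CD45 TIMP3 at 2896 (others 1245 to 1524), and C7N had CD45 MMP2 at 10958 (others 1964 to 3208) and TIMP2 at 7434 (others 2802 to 3211).

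In the E2 experiment rat A4-24 had MMP3 at 351 (others 0 to 21.4) and TIMP1 at 1422 (others 485 to 561) in CD45 cells and MMP3 at 5954 (others 918 to 1532) in luminal cells. Rat A4-37 had luminal MMP3 at 2723 (others 477 to 548) and MMP9 at 311.3 (others 0 to 48.1), and rat A4-28, without E2, had CD45 MMP9 at 2537 (others 412 to 751).

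Members moved in opposite directions in pairs of groups, each with no overlap between treated and vehicle rats, and these differences were not tested. In young ACI rats at day 0, basal cells of TGFBRi rats held TIMP1 from 3041, TIMP2 from 15830, TIMP3 from 11626 and MMP14 from 6174 normalized counts upward, all above vehicle, while in CD45 cells each of these 4 lay below vehicle. TIMP2 in luminal cells of TGFBRi rats was at least 2878, above vehicle, while in CD45 cells TIMP2 lay below vehicle, and TIMP1 in luminal cells lay below vehicle. In single cells, TIMP1 of TGFBRi rats in the ACI sort was at least 92.52 CPM in basal-like, 1540 CPM in luminal progenitor-like, 716.5 CPM in luminal-like and 151.9 CPM in mature luminal-like cells, above vehicle in each, and below vehicle in the same 4 classes of whole SD glands. MMP3 in luminal progenitor-like cells (6.922 CPM or more after TGFBRi) and PLAU in mature luminal-like cells (44.1 CPM or more) were likewise above vehicle in the ACI sort and below it in whole SD glands. TIMP3 in basal-like cells of whole SD glands was at least 92.89 CPM after TGFBRi, above vehicle, and below vehicle in both sorts. Sort and kit, and for ACI rats the strain, differ between these experiments and cannot be told apart. Bulk and single cells of sorted young ACI rats at day 0 also went opposite ways without overlap. TIMP1 lay below vehicle in bulk luminal cells and above it in the luminal classes of the ACI sort. TIMP3 lay above vehicle in bulk basal cells and below it in sorted basal-like cells. Of 90 tests of a difference between treatment effects of members in bulk, 0 were called by limma. At an unadjusted p under 0.05 the day 14 effect differed from the day 0 effect for 7 members in CD45 cells, beside 2347 of 14761 genes, led by TIMP2 (log2 2.06, SE 0.51, adjusted p = 0.093 by limma). For basal MMP14 the treatment effect in parous minus that in virgin rats was a log2 of 0.90 (SE 0.29, adjusted p = 0.13 by limma).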

How the results depend on the processing

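No called member value changed direction under any alternative. Counts of members called moved as follows. Shares of all genes under DESeq2 are given above only for young ACI rats at day 0 and for adult rats. The counts without such a share are no result about the members. Under DESeq2 they were 4 against 0 in young ACI rats at day 0, 3 against 0 at days 7 and 14, 4 against 2 in adult rats, 4 against 0 in NMU glands, 2 against 0 for TGFBRi in the E2 experiment and 7 against 3 for E2 itself. Under edgeR they were 1 in adult rats, 1 in NMU glands and 1 for E2. With only the groups compared in the fit they were 5 at day 0, 0 in adult rats, 1 in NMU glands, 1 for TGFBRi in the E2 experiment and 5 for E2. With the A4-15 samples kept separate they were 1 for TGFBRi in the E2 experiment and 9 for E2. Sums per library in place of classes gave 5 for sorted cells over 4 comparisons, against 15 over 7 classes, and 6 for whole glands in 1 comparison, against 45 over 14 classes.

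Shared rat codes did not pair adult rats (0 of 8 basal, 0 of 8 luminal and 1 of 5 CD45 pairs over 0.1). For whole glands with the same number r was 0.20, −0.05 and 0.26, not all under 0.1, so whether numbers pair these rats cannot be told. A replicate block left 1 member in adult rats, and a block over rats 1, 2 and 4 left 29 calls in whole glands, with fewer samples. The block changed no call of a member in bulk basal against luminal cells.

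Leaving out 1 rat at a time gave 2 to 5 calls for E2, 0 to 3 in NMU glands, 1 to 2 in adult rats, 10 to 15 in sorted cells, 34 to 46 in whole glands, 0 to 2 at day 0, 12 to 14 between sorts, 14 to 17 between basal and luminal cells and 14 to 20 between tumor and gland, and 0 to 0 in the others. The cause of these shifts was not tested. The number of all genes called moved by over 1.5 times under DESeq2 in 42 of 72 comparisons, under edgeR in 18 of 49, with only the groups compared in 19 of 49, with no filter in 5 of 72, with a pseudocount of 5 in 7 of 49, with A4-15 separate in 4 of 10, with the replicate block in 3 of 15 and with that over rats 1, 2 and 4 in 13 of 14.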
